A study of Mus musculus with 6 samples.

Results

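In total, 10 genes of the early B cell and plasma cell lineage were followed in purified microglia: *Vpreb1*, *Vpreb3*, *Igll1*, *Rag1*, *Dntt*, *Ebf1*, *Cd79a*, *Pax5*, *Jchain* and *Mzb1*. They were taken as every non-control probe whose transcript maps to 1 of these symbols, which gave 11 of the 56605 probes of the array, 1 for each of 9 genes and 2 for *Ebf1*. All 10 genes were found, and each probe was read in 6 arrays. Microglia were isolated from the brains of young, 3-month-old mice by Percoll enrichment and sorting of live CD45low CD11b+ Cx3cr1+ cells. The control group (*B41*HET, 3 samples) was Bhlhe41 dTomato-Cre/+ and the knockout group (*B41*KO, 3 samples) was Bhlhe41 dTomato-Cre/dTomato-Cre, so the control was heterozygous and every sample carried at least 1 copy of the allele. The allele is a knock-in reporter: cells that use the Bhlhe41 promoter make dTomato and Cre, and no Bhlhe41 protein comes from that copy. Each sample was pooled from several mice according to the Methods, whereas the labels speak of 3 mice per group.

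B cells arise from progenitors in the bone marrow. Rag1 cuts the immunoglobulin genes for rearrangement and Dntt adds bases at the joints. VpreB1 and the Igll1 product form the surrogate light chain, which pairs with the first heavy chain, while Ebf1 and Pax5 are the transcription factors that set and keep B cell identity. Cd79a is a signalling subunit of the B cell receptor and is made from the progenitor stage through to mature B cells. Plasma cells are the antibody-secreting end stage, in which Jchain joins the subunits of polymeric IgA and IgM and Mzb1 assists antibody folding in the endoplasmic reticulum. The healthy brain normally holds few cells of this lineage, and microglia are myeloid cells.

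Signals are given as log2 of the fluorescence intensity after quantile normalization across the 6 arrays. A change was called where limma gave an adjusted p up to 0.05 (Benjamini-Hochberg over all 56601 tested probes) and the log2 signal differed by at least 0.5 in either direction. By this measure, 5.09% of all probes were called, 3.38% lower and 1.72% higher in *B41*KO microglia. With arrays scaled by their 75th percentile instead, which moved the median log2 fold change of all probes from 0.01 to 0.13, the share of lower calls went from 66.3% to 53.9%. Probes well above background numbered 39654 to 42719 per array, no probe was saturated, and arrays of 1 genotype correlated at 0.989 to 0.993 against 0.985 to 0.989 between genotypes. All arrays lay on 1 slide, with the *B41*HET arrays and *B41*KO replicate 1 in slide row 1 and the other *B41*KO arrays in row 2. A fit with the slide row as a term thus compares *B41*KO replicate 1 alone with the controls. Both *Bhlhe41* probes were read at similar or higher levels in the *B41*KO samples (log2 fold changes of 0.38 and 0.33, adjusted p = 0.330 and 0.204 in limma), so this transcript gives no check of the genotype labels.

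*Cd79a* and *Jchain* fell in *B41*KO microglia, and none of the other members was called. Of the 10 genes, each taken by its brightest probe, 2 were called lower, 0 higher and 8 in neither direction, beside 4.05% of all 23462 named genes called lower and 1.44% higher. With so few members, 2 calls are a description of these genes and not of the lineage. The fitted log2 fold changes had a median of -0.16 against 0.01 over all named genes, but those of *Rag1*, *Ebf1* and *Jchain* include signals near background.

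**Figure D1:**
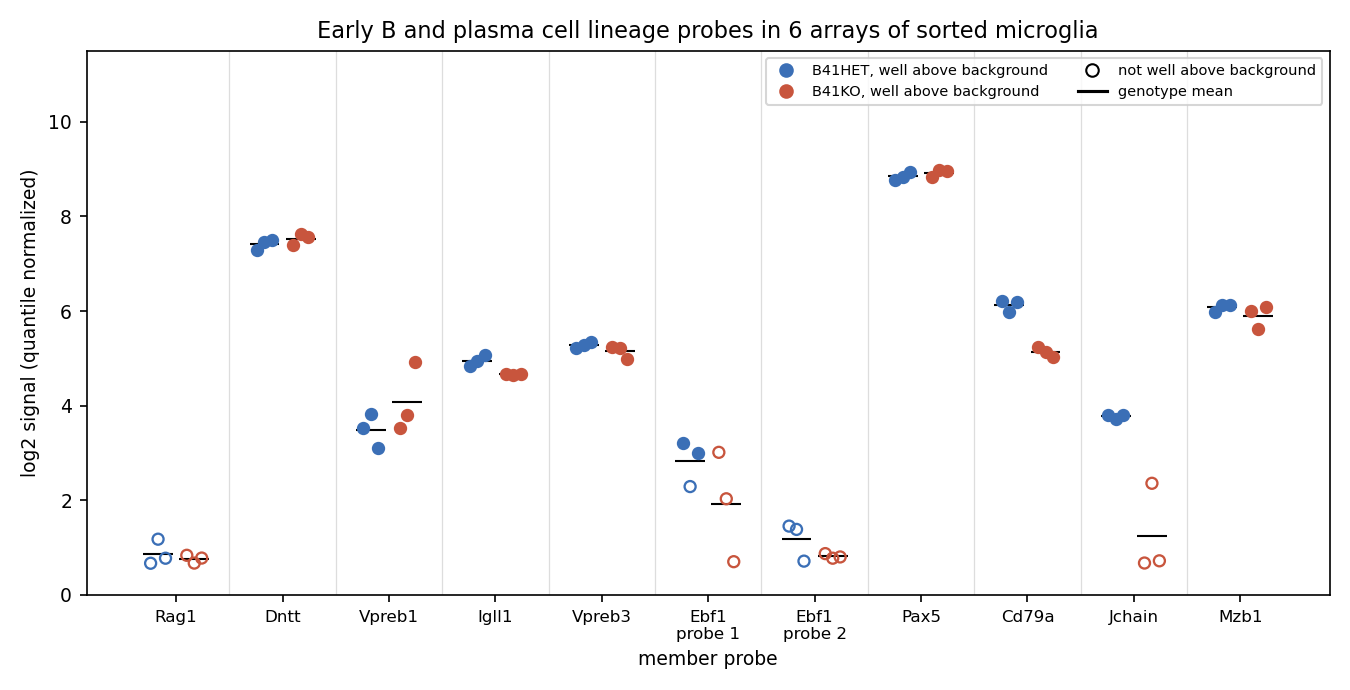
Log2 signal (quantile normalized) of the 11 probes in the 3 *B41*HET arrays (blue) and the 3 *B41*KO arrays (red), with bars at the genotype means and open circles where a probe was not well above background. *Cd79a*, *Jchain* and *Igll1* are the probes whose genotypes do not overlap, and the *Jchain* probe is not well above background in any *B41*KO array.

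The *Cd79a* probe (A_66_P120987) read 6.20, 5.98 and 6.20 in *B41*HET microglia and 5.25, 5.14 and 5.02 in *B41*KO microglia on the log2 scale. The lowest control sample lay above the highest knockout sample, and the probe was well above background on all 6 arrays. The log2 fold change was -0.99 (95% interval -1.24 to -0.74, SE 0.10, n = 3 per genotype, adjusted p = 0.00926 in limma), which is 1.98-fold lower. An exact two-sided permutation test over the samples gave p = 0.1, the smallest value that 3 samples against 3 allow. The log2 fold change kept its sign under all 14 other settings, but the call was lost under 3 of them. With the slide row as a term it was -0.88. That fit compares *B41*KO replicate 1 alone with the controls, since the other row held no control array. Under normexp background correction the log2 fold change was -0.49 (adjusted p = 0.00122 in limma), which just missed the fold threshold.

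The *Jchain* probe (A_51_P150710) read 3.80, 3.72 and 3.79 in *B41*HET microglia and 0.67, 2.36 and 0.72 in *B41*KO microglia on the log2 scale. Control samples were close together, whereas the knockout samples were spread and none of the 3 was well above background. With the knockout signals raised to the lowest signal that counted as above background on each array, *Jchain* was 1.82-fold lower in *B41*KO microglia. This value is set by that limit and is not a measured fold. The limma fit, made without the limit, gave a log2 fold change of -2.52 (SE 0.47, n = 3 per genotype, adjusted p = 0.0384). The exact permutation p was again 0.1, the smallest possible. The call was retained on leaving out *B41*KO replicate 2 (adjusted p = 0.00396) and was lost on leaving out any other single sample, with adjusted p up to 0.120. The call was lost under 8 of 14 other settings in all. Under normexp correction the fitted difference shrank to -0.25 (adjusted p = 0.0151 in limma), so the call was lost to the fold threshold. With the slide row as a term, which uses *B41*KO replicate 1 alone, the difference was -3.10.

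**Figure D2:**
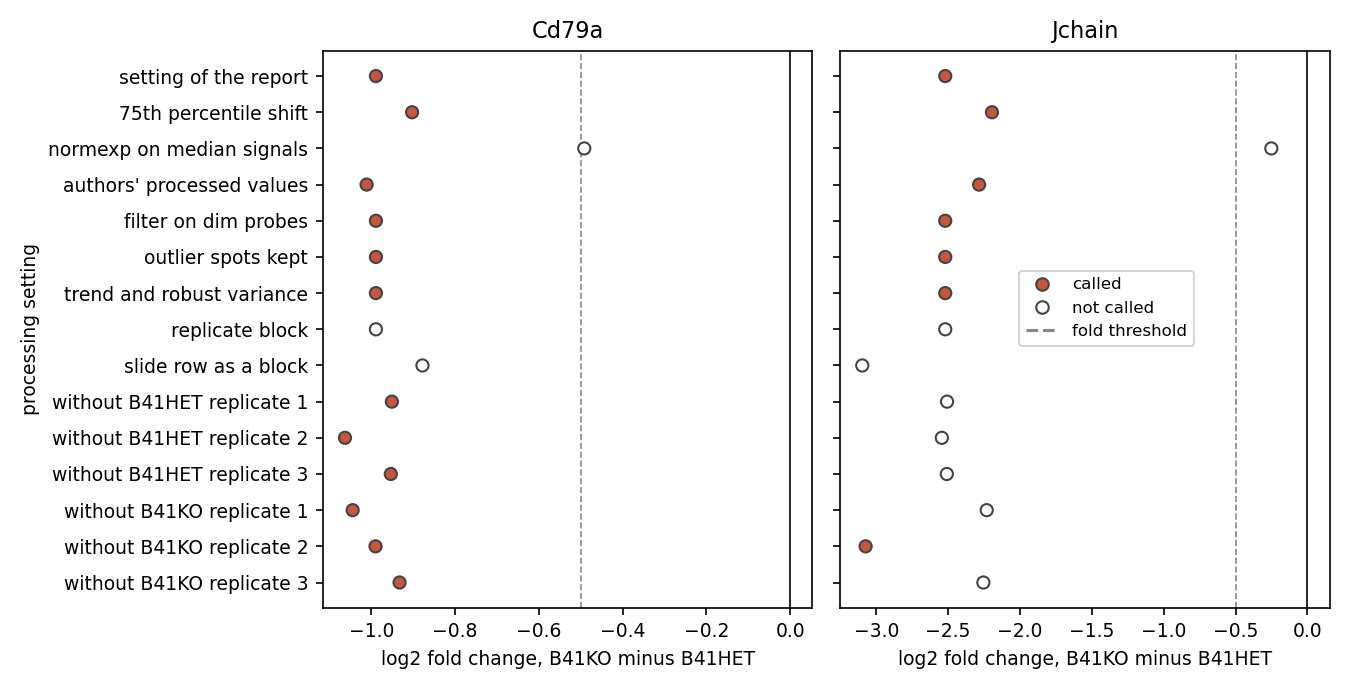
Log2 fold change of *Cd79a* (left) and *Jchain* (right), *B41*KO minus *B41*HET, under the setting of the report and 14 others; filled points were called and open points were not, and the dashed line is the fold threshold of 0.5. All values are below 0, and calls were lost under 3 settings for *Cd79a* and 8 for *Jchain*.

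The other plasma cell member, *Mzb1*, read 5.99, 6.14 and 6.14 in *B41*HET microglia and 6.01, 5.61 and 6.08 in *B41*KO microglia. The genotypes overlapped, with *B41*KO replicate 2 lowest, and the log2 difference was -0.19 (95% interval -0.54 to 0.17, adjusted p = 0.513 in limma).

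The surrogate light chain genes were not called. *Igll1* read 4.83, 4.94 and 5.06 in *B41*HET microglia and 4.68, 4.65 and 4.67 in *B41*KO microglia. These groups did not overlap, but the log2 difference of -0.28 (95% interval -0.49 to -0.08) had an adjusted p of 0.115 in limma and was below the fold threshold. With *Cd79a* and *Jchain* this makes 3 of 11 probes whose genotypes did not overlap, all lower in *B41*KO, where 29.6% of all probes did not overlap and 15.2% did so with the lower values in *B41*KO.

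*Vpreb1* read 3.53, 3.83 and 3.10 in *B41*HET microglia and 3.53, 3.81 and 4.92 in *B41*KO microglia. Only *B41*KO replicate 3 stood above the controls, and the log2 difference of 0.60 (95% interval -0.39 to 1.59, adjusted p = 0.445 in limma) was 0.19 without it. *Vpreb2*, a near-identical copy of *Vpreb1* whose transcript the probes may share, gave a log2 difference of 0.65 (adjusted p = 0.0593). *Vpreb3*, whose product is found with the receptor during its assembly, read 5.23, 5.28 and 5.34 against 5.25, 5.21 and 4.98, a difference of -0.14 (95% interval -0.38 to 0.11, adjusted p = 0.486 in limma).

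The recombination genes gave no call either. *Dntt* was well above background on every array and read 7.29, 7.46 and 7.50 in *B41*HET and 7.39, 7.63 and 7.56 in *B41*KO microglia (log2 difference 0.11, 95% interval -0.14 to 0.36, adjusted p = 0.582 in limma). *Rag1* stayed near background on each of the 6 arrays, so these arrays give it no fold change. Its fitted difference was -0.11 (adjusted p = 0.720).

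Of the transcription factors, *Pax5* read 8.76, 8.83 and 8.94 in *B41*HET and 8.83, 8.98 and 8.95 in *B41*KO microglia (log2 difference 0.07, 95% interval -0.14 to 0.28, adjusted p = 0.669 in limma). The brighter *Ebf1* probe read 3.22, 2.29 and 2.99 against 3.01, 2.03 and 0.70, and was well above background on 2 control arrays and 0 knockout arrays, so no fold is given. The second *Ebf1* probe was above background on none. It was called only when *B41*HET replicate 3 was left out (log2 difference -0.60, adjusted p = 0.0477). The 95% intervals of *Pax5*, *Dntt*, *Vpreb3* and *Igll1* all lay within 0.5 of 0 on the log2 scale, whereas those of *Vpreb1* and *Ebf1* were too wide to place the difference.

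**Figure D3:**
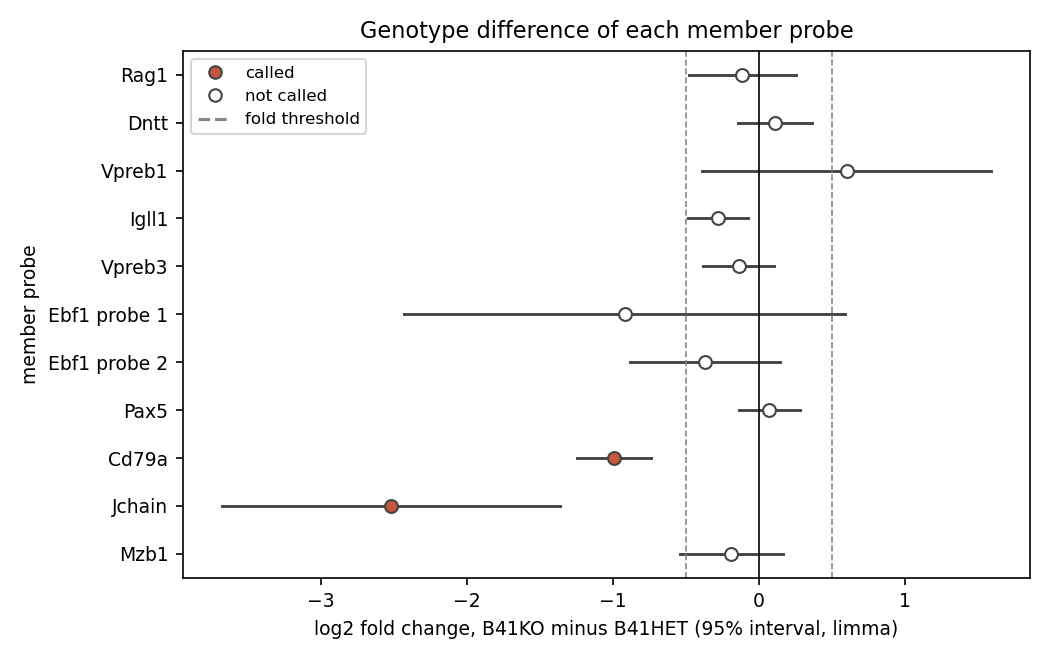
Log2 fold change (*B41*KO minus *B41*HET) of each probe with its 95% interval from limma (n = 3 per genotype); filled points were called, and dashed lines mark the fold threshold of 0.5. *Cd79a* at -0.99 and *Jchain* at -2.52 are the points past both criteria, and the dim *Ebf1* and *Jchain* probes have the widest intervals together with *Vpreb1*.

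To set precursor B, mature B and plasma cell transcripts apart, 3 further lists without the members were counted in the same fit, again by the brightest probe of each gene. Of 15 precursor B cell genes, 1 was called lower and 1 higher (median log2 fold change 0.03). Of 17 mature B cell genes, 1 was called lower and 1 higher (median -0.05), and of 14 plasma cell genes 1 was called lower and 0 higher (median -0.11). Together 5 of 46 genes (10.9%) were called, 3 of them lower and 2 higher, beside 5.49% of all named genes.

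The precursor gene that fell was *Il7r*, the receptor for the cytokine that sustains B and T cell progenitors, from 8.09 to 7.24 (log2 fold change -0.84, SE 0.12, adjusted p = 0.0197 in limma). The called increase was *Rag2*, the partner of *Rag1*, but both of its probes stayed near background throughout and so no fold is given. They went opposite ways, the second with a fitted difference of -0.50 (adjusted p = 0.610 in limma), and the first is 1 of the 5 calls counted above. *Tcf3* (-0.07) and *Blnk* (-0.04) did not pass the test. The call of *Il7r* was kept without *B41*HET replicate 3 (adjusted p = 0.0269) and lost on leaving out any other sample (up to 0.0774).

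Among mature B cell genes, *Bank1*, an adaptor of B cell receptor signalling, fell from 7.50 to 6.88 (log2 fold change -0.62, adjusted p = 0.0296 in limma). *Cxcr5*, which guides B cells to follicles, was above background in 0 of 3 control arrays and was at least 1.46-fold higher in *B41*KO microglia (adjusted p = 0.0282). The defining B cell antigen *Ms4a1* (CD20) did not rise well above background in these arrays, nor did *Fcmr* and *Fcrla*. *Cd79b*, which pairs with Cd79a in the receptor, differed by 0.02 on the log2 scale (adjusted p = 0.944 in limma). These 4 genes were named after their values were seen, as were *Vpreb2* and, in the lists of other cells, *Prtn3*, *Ctsg*, *Elane* and *Cd3g*. *Cd37* (-0.14) and *Cd72* (-0.05) did not pass the test, and the call of *Cxcr5* was lost on leaving out any 1 sample and under 10 of 14 other settings in all, with a log2 difference of 0.08 (adjusted p = 0.286) under normexp. That of *Bank1* was kept without *B41*HET replicate 1 (adjusted p = 0.0436) and lost on leaving out any other (up to 0.107).

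In the plasma cell list, *Irf4*, a factor needed for plasma cell formation, fell from 6.72 to 5.97 on its brightest probe (log2 fold change -0.75, adjusted p = 0.0377 in limma). Its other probe gave -0.11 (adjusted p = 0.855), and the call of the first was lost on leaving out any 1 sample. *Xbp1*, which drives the secretory programme, and *Eaf2* differed by 0.04 and 0.02 on their brightest probes and did not pass the test.

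Microglia and other myeloid cells can express some of these listed genes themselves, *Irf4*, *Cd37*, *Xbp1* and *Blnk* among them. In RNA from bulk samples, fewer cells of a type and less RNA per cell cannot be told apart.

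Of the lists for other cells that a sort could hold, the neutrophil list held the most calls. Of 12 neutrophil and myeloid precursor genes, 9 fell and 0 rose (median log2 fold change -1.81), and all 12 were well above background on every array. Their mean log2 signal was 9.37 to 9.50 in *B41*HET and 7.76 to 7.78 in *B41*KO samples. The granule genes *Ltf* (-3.18, adjusted p = 0.00107) and *Ngp* (-3.13, adjusted p = 0.000367 in limma) had the lowest values by brightest probe. *Lcn2* gave -1.81 (adjusted p = 0.00107) on its brightest probe and -3.20 (adjusted p = 0.00183) on another. Of the genes of the earliest granules, *Prtn3* (-1.81, adjusted p = 0.00209) and *Ctsg* (-0.97, adjusted p = 0.0122) fell, whereas *Mpo* (0.38, adjusted p = 0.156) and *Elane* (-0.04, adjusted p = 0.915 in limma) did not pass the test. The part of these cells in the lower *Cd79a* and *Jchain* signals was not tested.

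Of 10 plasmacytoid dendritic cell genes, a cell type that shares some transcripts with B lineage cells, 1 fell and 1 rose (*Ly6c2*, also a monocyte antigen, -2.10 and *Cox6a2* 0.76, adjusted p = 0.000678 and 0.00714 in limma), with a mean log2 signal of 7.98 to 8.03 in *B41*HET and 7.80 to 7.86 in *B41*KO samples. *Tcf4* of this list was not called on its brightest probe (-0.25), while its other probes gave -0.52 (adjusted p = 0.0266 in limma, called), 0.04 and 0.06. Of 14 T and NK cell genes, 0 were called (median 0.13), and their mean log2 signal was 5.86 to 6.02 in *B41*HET and 5.99 to 6.09 in *B41*KO samples. *Cd3g* of this list did not rise above background.

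Of 10 measured erythroid genes, 0 fell and 3 rose (*Hbb-bt*, *Hba-a2* and *Alas2*). The mean log2 signal of the list was 7.89 to 7.99 in *B41*HET and 8.30 to 8.39 in *B41*KO samples. *Hba-a1* was not called on its brightest probe (0.29), but its other probe gave 1.37 (adjusted p = 0.00188 in limma, called). By the mean over a gene's probes, 4 erythroid genes were called higher. The globin genes are near-identical copies, so their probes may share transcripts, and the call of *Alas2*, an enzyme of haem synthesis, was lost on leaving out any 1 sample. Of 14 microglia genes, 1 fell (*Fcrls*, -0.76, adjusted p = 0.00584 in limma), all were well above background on every array, and their mean log2 signal was 12.65 to 12.76 in *B41*HET and 12.52 to 12.61 in *B41*KO samples. *Cx3cr1* (-0.25 on its brightest probe, 0.08 on another) and *Tmem119* (-0.05) did not pass the test.

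**Figure D4:**
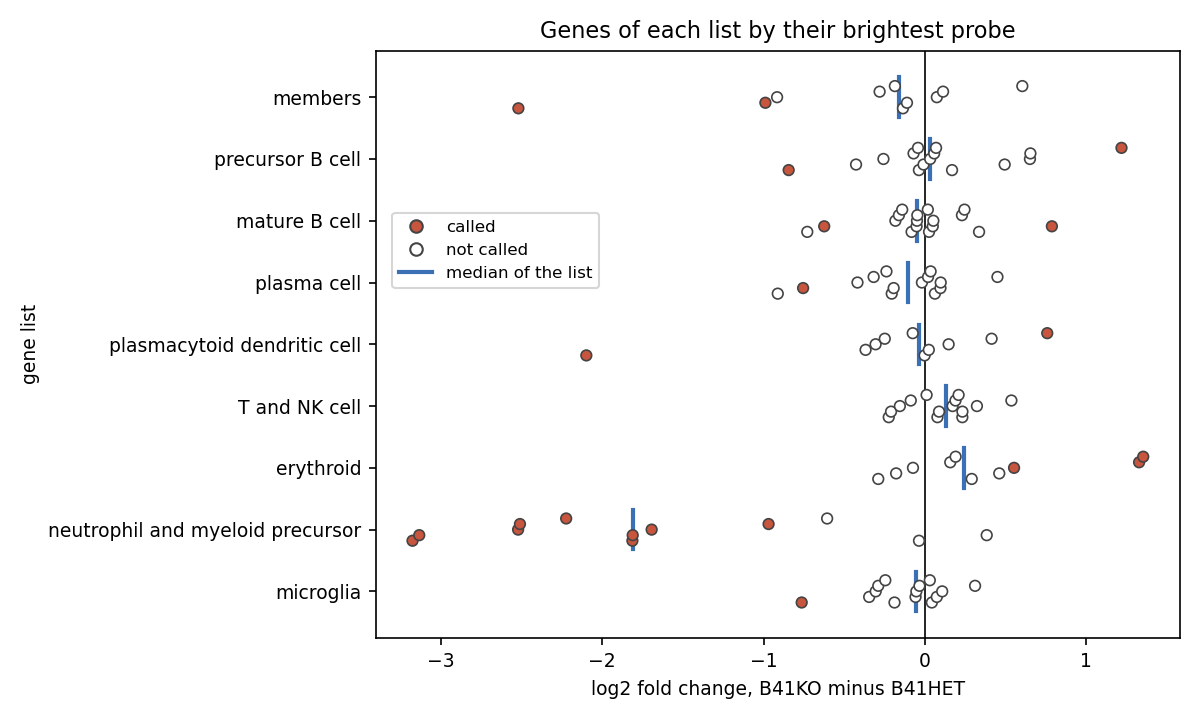
Log2 fold change (*B41*KO minus *B41*HET) of every measured gene of the members and of each list, by the brightest probe; filled points were called and blue bars are list medians. The 3 B lineage lists centre near 0 with medians of 0.03, -0.05 and -0.11, the members lie at -0.16, and 9 of the 12 neutrophil and myeloid precursor genes were called lower; the filled *Rag2* point at 1.22 is of a probe not above background.

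Genes whose profile over the 6 arrays lay nearest to that of a called member were searched among 18395 genes, as the root mean square difference of mean-centred log2 signals. For *Cd79a* these were *Ceacam1* (0.0286), *Rasl11a* (0.0508) and *Pxdc1* (0.0607), with *Rasl11a* above background on 1 of 3 knockout arrays. For *Jchain* they were *Ptgs2* (0.259), *Cxcl9* (0.299) and *Rgcc* (0.354), each above background on all 3 control arrays and on none of the 3 knockout arrays. The same holds for *Jchain*, so in the knockout arrays these distances compare signals near background, and their order carries little weight. The 6 arrays share 1 slide, and the likeness is a description over 6 points.

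Bhlhe41 is a basic helix-loop-helix repressor that binds E-box sequences, so the promoters of the members were read for such letters. RefSeq promoter windows on GRCm38.p6 were found for 9 of the 10 members, 10 windows in all, and the 250 bases before each start were searched on both strands. The E-box form CACGTG was in 0 of 10 member windows and in 6.02% of all 32851 windows. The looser CANNTG, which includes CACGTG, was in 9 of 10 member windows and in 66.2% of all. The octamer ATGCAAAT, known from immunoglobulin promoters, was in 1 of 10 (*Vpreb3*) and in 1.6% of all, and the palindromic consensus bound by Ebf1 was in 0 of 10 and in 0.779% of all. A match is a run of letters in the window and says nothing of binding. The windows of *Cd79a* and *Jchain* are shown because these members fell, and that of *Vpreb3* because it alone held the octamer. Each is written 5′ to 3′ along the gene and ends at the base before the start.
*Cd79a*, chr7:24897247-24897496, plus strand, with CANNTG at 154 and 117 bases before the start in capitals: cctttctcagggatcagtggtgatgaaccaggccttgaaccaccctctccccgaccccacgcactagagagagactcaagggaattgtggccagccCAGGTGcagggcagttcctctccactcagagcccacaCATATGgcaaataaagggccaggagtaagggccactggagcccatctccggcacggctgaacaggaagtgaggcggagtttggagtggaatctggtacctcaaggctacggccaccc
*Jchain*, chr5:88527898-88528147, minus strand, with CANNTG at 235, 109 and 54 bases before the start in capitals: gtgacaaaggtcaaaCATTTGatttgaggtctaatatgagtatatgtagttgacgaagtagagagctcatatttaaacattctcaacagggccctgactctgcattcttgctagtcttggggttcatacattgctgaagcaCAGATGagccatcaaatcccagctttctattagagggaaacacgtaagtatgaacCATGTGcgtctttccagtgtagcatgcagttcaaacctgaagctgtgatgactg
*Vpreb3*, chr10:75948050-75948299, plus strand, with the octamer (here on the other strand) at 45 bases before the start in capitals: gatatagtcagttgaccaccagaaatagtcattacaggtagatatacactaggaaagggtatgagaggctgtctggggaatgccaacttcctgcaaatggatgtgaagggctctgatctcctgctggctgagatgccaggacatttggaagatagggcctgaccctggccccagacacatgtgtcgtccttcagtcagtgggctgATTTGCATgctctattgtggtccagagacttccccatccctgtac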

How the data were processed

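Total RNA of sorted microglia was labelled with Cy3 and hybridised to SurePrint G3 Mouse 8x60K arrays, 3 *B41*HET and 3 *B41*KO. The authors deposited scanner output of Agilent Feature Extraction 11.5.1.1, whose intensity values are background-subtracted and detrended within each array and not normalized between arrays. They also deposited a table of log2 values that were quantile normalized, used here as an alternative. Depth does not apply to arrays, and the number of arrays limits the precision.

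Here log2 intensities of 59305 non-control spots were quantile normalized, outlier spots were left out (95 to 136 per array), spots of a probe were averaged, and genotypes were compared with limma 3.58.1 in R 4.3.3, with Benjamini-Hochberg adjustment over 56601 probes and the study's own threshold. Quantile normalization assumes like distributions in all samples, and signals near background are small positive estimates, which can inflate log differences of dim probes. Probes were named through RefSeq accessions on GRCm38.p6 (33767, 59.7%). The design was made on mm9, so probe positions are not given.

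The members and lists were chosen with earlier results of these data known. The rule for naming took all members, up to 6 called genes and 2 bright uncalled genes per list, and the 3 nearest profiles of each called member. Not every list gene chosen by this rule is given above. A few others are marked in the report as named after their values were seen. Of 12 erythroid genes, *Hbb-bs* and *Ahsp* matched no probe by name. The alternatives were a 75th percentile shift, normexp with an offset of 50 on median signals, the authors' values, a filter that kept probes above background on 3 or more arrays, outlier spots kept, trend and robust variance, the replicate number or the slide row as a term, each sample left out, and the mean over a gene's probes. The model was tested on simulated data: of 200 probes changed out of 56559, 38% of the log2 changes of 1 and 76% of those of 2 were recovered, and 8 of 122 calls were false.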

Additional observations from a re-analysis of the deposited data

How the results depend on the processing

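The count of members called lower in *B41*KO microglia was 2 in the report, 0 under normexp, 0 with the slide row as a term, and 1 to 2 on leaving out 1 sample, and the count called higher was 0 under every setting run. Among the 46 B lineage list genes, lower calls went from 3 to 1 under normexp, 0 with the slide row and 0 to 1 on leaving out 1 sample, and higher calls from 2 to 0, 1 and 0 to 1, while by the mean over a gene's probes 4 were called lower and 1 higher. With the slide row the calls of *Fcrls* and *Cox6a2* were lost too. Over all probes, lower calls went from 1912 to 1084 under normexp, 263 with the slide row and 554 to 1019 on leaving out 1 sample, and higher calls from 971 to 417, 185 and 242 to 509. The causes were not tested, apart from the fewer samples where 1 was left out. With the slide row as a term, only *B41*KO replicate 1 is compared with the controls. Calls lost in that fit cannot be told apart from the effect of fewer samples.

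Whether replicate numbers pair the samples was not tested. The deviations of same-numbered samples correlated weakly, at 0.0136 to 0.0477, and 4 of 6 samples correlated best with their own number. With the replicate number as a block, 0 members, 0 lower and 0 higher B lineage genes, and 40 lower and 2 higher probes overall were called, and calls fell from 9 to 4 in the neutrophil list, from 3 to 0 in the erythroid list, from 2 to 0 in the plasmacytoid dendritic cell list and from 1 to 0 in the microglia list (*Cd79a* adjusted p = 0.0736, *Jchain* 0.104, limma).

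The filter on dim probes left no value for *Rag1*, *Ebf1* and *Rag2*. For single probes no direction turned among called values: 539 values stayed on their side of the threshold, 69 lost the call and 4 gained it (1 of *Ebf1*, 3 of *Mmp8*). With 3 samples per genotype, differences of dim members such as *Rag1*, *Ebf1* and *Vpreb1* could not be resolved by these arrays.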
